A study of Mus musculus and Acomys cahirinus with 84 samples.

Results

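The nuclear genes for the subunits of the mitochondrial respiratory chain and of the ATP synthase were followed in skin fibroblasts of mice and of the African spiny mouse Acomys cahirinus after gamma irradiation. Members were taken by symbol: the Nduf genes of complex I with an a, b, c, s or v suffix, Sdha to Sdhd of complex II, the Uqcr genes of complex III, the Cox4 to Cox8 genes of complex IV and the Atp5 genes of complex V, without those whose symbol ends in -ps. The rule found 93 of the 56980 genes in the mouse count table and 85 of the 19818 genes in the A. cahirinus table, and 83 members were in both. Among the mouse members 43 belonged to complex I, 4 to complex II, 8 to complex III, 19 to complex IV and 19 to complex V. Of these 93, 88 were annotated as protein coding, 3 as transcribed processed pseudogenes, 1 as a processed pseudogene and 1 as a long noncoding RNA. In the A. cahirinus table the complexes held 38, 4, 8, 18 and 17 members, 14 of them matched through an older gene name listed by RefSeq, and the entries Atp5md and Atp5mpl could not be matched to a mouse gene. Grouping followed the symbols, so Ndufa4, which is named for complex I and is now known as a component of complex IV, was counted with complex I together with its relative Ndufa4l2.

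The data were polyA RNA-seq libraries of primary skin fibroblasts, meaning cells grown out of skin and not an immortal line, from 3 populations labelled C56BL6 mouse, wild mouse and A. cahirinus. Each population had 7 groups of 4 libraries: untreated, 10 Gy and 20 Gy at 24 h after gamma irradiation, the same 3 at 12 d, and an untreated passaged group at 12 d. The labels give no age, sex or tissue site for the animals and do not say how often the passaged cells were passaged. All 24 h libraries carry batch label B1 and all 12 d libraries B2, so the 2 time points cannot be told apart from the 2 batches, and levels at 24 h were not tested against levels at 12 d.

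Complexes I and II pass electrons from NADH and succinate to ubiquinone, complex III passes them on to cytochrome c, and complex IV passes them to oxygen. Complexes I, III and IV pump protons across the inner mitochondrial membrane, and complex V uses the gradient to make ATP. Except for complex II, each combines subunits encoded in the nucleus with a few encoded by the mitochondrial genome. Several nuclear subunits exist as paralogous isoforms used in muscle, testis or under low oxygen, among them Cox4i2, Cox6a2, Cox6b2, Cox7a1, Cox8b and Ndufa4l2.

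Promoter sequences of 6 members are shown because these members carry the results below. Atp5f1e, Atp5mc2, Ndufa6 and Uqcrh were each called lower in C56BL6 cells at 12 d after 20 Gy, and Cox7a1 and Cox6b2 are tissue isoforms described in each population. Each run is the 250 bases before the annotated start, from RefSeq on build GRCm38.p6, written 5′ to 3′ on the gene's strand. Capitals mark the cores searched on both strands: GCGCATGC for NRF1, CCGGAAG for ETS factors, AAGATGGC for YY1 and ACGTG for the hypoxia response. Overlapping matches were each counted.
Atp5f1e, chr2:174464102-174464351, minus strand: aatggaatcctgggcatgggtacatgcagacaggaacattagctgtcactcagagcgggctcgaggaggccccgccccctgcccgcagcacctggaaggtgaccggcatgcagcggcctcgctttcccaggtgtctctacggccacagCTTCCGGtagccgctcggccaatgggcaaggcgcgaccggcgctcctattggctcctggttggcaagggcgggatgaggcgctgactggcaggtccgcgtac
Atp5mc2, chr15:102671048-102671297, minus strand: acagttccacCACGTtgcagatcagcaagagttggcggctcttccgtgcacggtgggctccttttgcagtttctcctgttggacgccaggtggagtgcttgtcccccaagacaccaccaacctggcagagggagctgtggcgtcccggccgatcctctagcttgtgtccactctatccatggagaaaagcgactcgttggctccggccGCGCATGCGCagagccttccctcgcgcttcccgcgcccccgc
Ndufa6, chr15:82354292-82354541, minus strand: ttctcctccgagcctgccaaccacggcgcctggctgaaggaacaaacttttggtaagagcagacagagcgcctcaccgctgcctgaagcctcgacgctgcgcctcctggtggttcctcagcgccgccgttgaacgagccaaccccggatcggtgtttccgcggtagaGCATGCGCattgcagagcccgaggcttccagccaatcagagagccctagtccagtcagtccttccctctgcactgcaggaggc
Uqcrh, chr4:116075071-116075320, minus strand: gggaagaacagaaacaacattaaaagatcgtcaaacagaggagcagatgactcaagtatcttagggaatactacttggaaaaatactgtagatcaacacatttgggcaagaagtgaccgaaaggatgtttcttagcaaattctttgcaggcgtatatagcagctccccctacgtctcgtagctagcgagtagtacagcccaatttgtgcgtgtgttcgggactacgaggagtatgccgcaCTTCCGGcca
Cox7a1, chr7:30183921-30184170, plus strand: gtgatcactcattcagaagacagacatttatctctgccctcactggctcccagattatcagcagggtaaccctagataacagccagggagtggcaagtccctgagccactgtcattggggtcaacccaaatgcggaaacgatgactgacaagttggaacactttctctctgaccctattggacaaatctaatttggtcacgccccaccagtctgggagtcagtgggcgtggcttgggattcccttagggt
Cox6b2, chr7:4753095-4753344, minus strand: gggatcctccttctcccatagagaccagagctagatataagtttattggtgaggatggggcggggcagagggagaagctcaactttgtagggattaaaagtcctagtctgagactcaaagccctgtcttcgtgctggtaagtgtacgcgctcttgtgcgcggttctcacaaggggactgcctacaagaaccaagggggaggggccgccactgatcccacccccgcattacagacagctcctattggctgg
The Atp5f1e and Uqcrh windows each held 1 ETS core, the Ndufa6 window 1 NRF1 core, and the Atp5mc2 window 2 overlapping NRF1 cores and 1 hypoxia response core. No core in capitals was found in the Cox7a1 and Cox6b2 windows. Over the 69 member promoters in the table, matched from 70 of the 93 mouse members, 8 (11.6%) held the NRF1 core, against 2.3% of all 27025 promoters. The ETS core was in 15.9% of member promoters and 7.1% of all, and the hypoxia response core in 21.7% and 16.6%. The YY1 core was in 0 of the 69 windows and in 1.6% of all. A further core for SP factors, GGGCGG, which is not capitalised above, was in 34.8% of member promoters and 32.9% of all. Over 300 bases, which adds the 50 after the start, 9 of 69 member windows (13%) held the YY1 core against 2.9% of all, and the shares were 14.5% and 2.8% for NRF1, 21.7% and 9.1% for ETS, 26.1% and 19.7% for the hypoxia response core and 39.1% and 35.9% for SP. These are matches of letters in a window and no measure of binding.

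Depth ran from 26.65 to 39.82 M counts (M, 1000000) per C56BL6 library, 17.42 to 35.98 M per wild mouse library and 25.55 to 52.86 M per A. cahirinus library. Levels below are counts per M library counts (CPM) with edgeR's TMM scaling (trimmed mean of M values), and 3 counts corresponded to 0.172 CPM or less in every library. The replicate number in the labels marks one animal code within a population, and same-numbered libraries deviated together, so each comparison was fitted without and with the animal as a block. Of the fibroblast markers, Col1a1 had a median of 6630 CPM in C56BL6, 10100 in wild mice and 7350 in A. cahirinus. Not all listed markers were high in mice. Lum had a median of 0.482 CPM in C56BL6 and 0.415 in wild mice, against 187 in A. cahirinus. Dcn was as low as 0.734 CPM in C56BL6 and 0.219 in wild mice. All A. cahirinus libraries also carried skeletal muscle markers. Myod1, a regulator of the muscle lineage, ran from 30.7 to 187 CPM and Myh3, embryonic myosin, from 309 to 5100. Ckm was low, at 0.0668 to 4.41 CPM with a median of 0.499. Each of the 7 listed markers reached 1 CPM in at least 1 library. In both mouse populations 5 of these 7 markers were under 1 CPM in every library. Keratinocyte markers summed to 195 to 841 CPM in the highest library of every C56BL6 group, against group medians of 1.24 to 2.78. The 841 CPM were in an untreated library at 12 d, against 1.46 in the lowest of its group. In wild mice 2 things stood apart. Replicate 1 at 12 d differed from replicate 1 at 24 h at 15 of 33 genes that are on in some animals and off in others, and matched replicate 4 at all 33, so that calls and levels described for wild mice at 12 d are also given without it. Replicate 1 at 10 Gy and 24 h had 17843 genes detected, against at least 21846 in the rest of its group, and a member sum of 21134 CPM against 6571 to 7530.

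**Figure D1:**
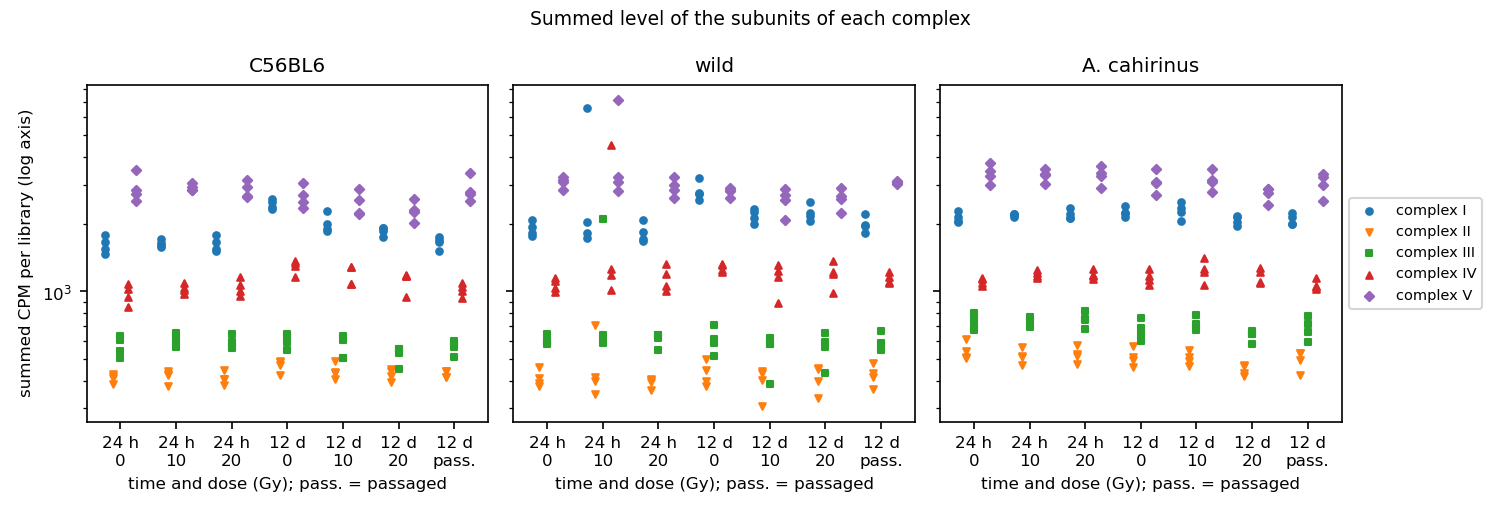
Summed level of the members of each complex (CPM per library, log axis) in the 7 groups of each population; each point is 1 library and each colour and marker a complex. Complex V is the highest sum in nearly every library and complex II the lowest, and the wild mouse library at 10 Gy and 24 h that stands far above its group is replicate 1.

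At 12 d the members summed to a lower level in irradiated than in untreated C56BL6 cells. Their summed level was 7485 ± 502 CPM in untreated cells (SD, n = 4), 6672 ± 632 at 10 Gy, 6229 ± 438 at 20 Gy and 6537 ± 542 in passaged cells. In wild mice the sums were 7915 ± 231, 6823 ± 798, 7002 ± 712 and 7224 ± 317 CPM in the same order, and without replicate 1 they were 7904 ± 282, 6673 ± 906, 6714 ± 513 and 7249 ± 383 (n = 3). In A. cahirinus they were 7692 ± 581, 7895 ± 416, 7067 ± 249 and 7386 ± 625 CPM. In C56BL6 complex I was at 2460 ± 116 CPM untreated and 1865 ± 78.0 at 20 Gy, of which Ndufa4l2 alone made up 501 and 180 CPM. Complex V was at 2661 ± 307 and 2298 ± 235 CPM. The median log2 change per tested member was -0.19 in complex I and -0.28 in complex V. In A. cahirinus complex I was at 2262 ± 103 CPM untreated and 2084 ± 96 at 20 Gy. These sums were not tested. In bulk RNA, fewer cells of a type and less RNA per cell cannot be told apart.

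The most abundant members per kilobase of annotated exon were similar in kind between populations. Atp5f1b, the catalytic beta subunit of ATP synthase, led in each, with a median over libraries of 245 CPM per kb in C56BL6, 244 in wild mice and 535 in A. cahirinus. Cox6a1 and Cox6b1, both of complex IV, followed in C56BL6 at 186 and 185 CPM per kb. Across genes, the order of untreated levels per kb at 12 d was nearly the same in C56BL6 and wild mice (Spearman rho 0.96 over 83 genes) and less alike between C56BL6 and A. cahirinus (0.53), whose gene models come from different annotations. Genes share libraries and are no independent replicates, so no p is given. Against untreated C56BL6, 1 of 83 tested members was higher in untreated wild mice at each time and none was lower, by edgeR's quasi-likelihood test with Benjamini-Hochberg adjustment. Of all genes tested, 5.70% were called at 24 h and 2.93% at 12 d. At 24 h the member was Ndufv3, an accessory subunit of the NADH-oxidising arm (log2 fold change 0.54, SE 0.10, adjusted p = 0.023), and at 12 d Cox4i2 (2.91, SE 0.51, adjusted p = 0.023). The Ndufv3 call was lost without any 1 of the C56BL6 replicates (adjusted p = 0.064 to 0.085) and the Cox4i2 call without C56BL6 replicate 2 or 3 (0.088 and 0.081). Without wild mouse replicate 1 Cox4i2 was at 3.08 (adjusted p = 0.038).

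Members with almost no counts in mice were not tested: Cox6c2, Cox7b2, Cox8b, Cox8c, Ndufa11b, Ndufb4b, Ndufb4c, Ndufb11b, Ndufs6b and a second gene entry for Atp5po, none with more than 5 counts in any library. The remaining 83 mouse members passed the filter on low counts. In A. cahirinus Cox6a2, Cox7b2 and Cox8c were left out, and Cox8b too at 24 h. Because a gene can pass the filter through 1 group alone, the counts below describe the members tested and not all members.

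At 24 h few members were called. Without the block, 0 of 83 members were called in C56BL6 at 20 Gy (5 at an unadjusted p under 0.05) and 0 at 10 Gy (3 unadjusted), with DESeq2 calling none either. Of all genes, 0.0895% and 0.00700% were called. With the animal block, 6 members were higher and 3 lower at 20 Gy and 2 higher and 3 lower at 10 Gy, against 17.6% and 11.5% of all genes. In wild mice 0 members were called at 20 Gy (1 unadjusted; 1 by DESeq2), as were 0% of all genes, and with the block 1 was higher and 1 lower (12.5% of all genes). At 10 Gy wild mice had 0 calls with or without the block (0% of all genes both times; 1 member unadjusted and 1 by DESeq2). The median log2 difference of the 83 members there was 0.79, and it was 0.00 without replicate 1. In A. cahirinus 1 member was higher at 20 Gy (3.59% of all genes called) and 0 at 10 Gy (3.73% of all genes; 5 members unadjusted; 1 by DESeq2). With the block these became 4 and 6 members higher and none lower, against 24.1% and 27.6% of all genes.

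Cox6b2, on chromosome 7 (GRCm39, 4754789 to 4756093, minus strand), encodes the testis isoform of a small subunit of cytochrome c oxidase, and it was higher 24 h after 20 Gy in each population. In replicates 1 to 4 of A. cahirinus it was at 4.29, 4.20, 3.15 and 3.70 CPM untreated and at 5.71, 5.64, 6.44 and 7.03 after 20 Gy. The groups did not overlap (log2 0.72, SE 0.15, adjusted p = 0.036), and the call was lost without replicate 1, 3 or 4 (adjusted p = 0.14 to 0.34). In wild mice it went from 7.53, 5.06, 6.14 and 8.77 CPM to 13.5, 19, 26.9 and 26.8, again without overlap, with a log2 change of 1.64 (SE 0.18, adjusted p = 4.8e-04) in the blocked fit and adjusted p = 0.43 without the block. In C56BL6 the levels were 0.745, 5.90, 3.54 and 4.24 CPM untreated and 2.17, 9.14, 8.40 and 10.1 at 20 Gy. The groups overlapped because animal 1 was low in both, and each animal was higher after irradiation (blocked log2 1.09, SE 0.14, adjusted p = 1.2e-04; adjusted p = 0.65 without the block). At 10 Gy the blocked changes in C56BL6, A. cahirinus and wild mice were 0.66, 0.52 and 1.60, with adjusted p = 0.011, 0.0037 and 0.2; none was called without the block.

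Ndufa4l2, on chromosome 10 (GRCm39, 127350818 to 127353038, plus strand), encodes a paralog of NDUFA4 known as a target of hypoxia-inducible factors. At 24 h it was at 66.6, 50.9, 47.5 and 86.7 CPM in untreated C56BL6 cells and at 49.9, 26.2, 21.5 and 37.9 after 20 Gy. Every animal was lower after irradiation although 1 irradiated value lay within the untreated range (blocked log2 -0.91, SE 0.10, adjusted p = 4.5e-05; adjusted p = 0.35 without the block). In wild mice it went from 125, 256, 181 and 92.1 CPM to 64.7, 136, 96.4 and 74.6, with overlap between the groups and a blocked log2 change of -0.75 (SE 0.11, adjusted p = 0.0015). A. cahirinus levels were 206, 279, 169 and 176 CPM untreated and 180, 303, 185 and 195 at 20 Gy, with no call in either fit. The difference between the A. cahirinus and C56BL6 changes was 0.98 with the block (SE 0.14, adjusted p = 1.2e-04). Without the block none of 80 members differed in this test (2 at an unadjusted p under 0.05) and 2.09% of all genes did; with it, 3 members were more positive in A. cahirinus, against 16.7% of all genes called. Besides Ndufa4l2 these were Cox4i2, the lung and low-oxygen isoform of COX4 (0.66), and Ndufa13, an accessory subunit of complex I (0.22).

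Cox6a2, the heart and muscle isoform of subunit 6a, was low in C56BL6 cells, at 2.98, 3.49, 1.68 and 2.38 CPM untreated and 1.47, 2.14, 0.470 and 1.04 at 20 Gy and 24 h. All 4 animals were lower after irradiation (blocked log2 -1.08, SE 0.19, adjusted p = 0.0014). Other 24 h changes were small. In the blocked fit for C56BL6 at 20 Gy, Ndufb6, Ndufa11, Cox4i1 and Uqcrc1 rose by 0.25, 0.23, 0.18 and 0.15 on the log2 scale. In A. cahirinus at 20 Gy, Cox7a2l, which joins complexes III and IV into supercomplexes, rose by 0.28, Ndufa13 by 0.26 and Ndufv3 by 0.18 with the block.

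By 12 d, many C56BL6 members were lower after irradiation and none was higher without the block. At 20 Gy 26 of 83 were lower and 0 higher, against 13.6% of all genes lower and 13% higher. The median log2 change was -0.20 for the members and -0.01 for all genes, and 64 of the 83 values were negative. With the block 39 were lower and 2 higher (24.3% and 23.2% of all genes). At 10 Gy 15 were lower and 0 higher (10.6% and 10.3% of all genes), with a median of -0.09, and 19 and 4 with the block (19.7% and 19.2%). By complex at 20 Gy, the calls were 11 of 38 tested members of complex I, 1 of 4 of complex II, 3 of 8 of complex III, 3 of 15 of complex IV and 8 of 18 of complex V. Leaving out replicate 1, 2, 3 or 4 from both groups gave 29, 11, 13 and 16 calls at 20 Gy and 18, 5, 0 and 7 at 10 Gy. Of the members described below, the 20 Gy calls of Cox7a1 and Atp5f1e were lost without replicate 2 (adjusted p = 0.084 and 0.057), that of Cox7a1 also without replicate 4 (0.055), that of Uqcrfs1 without replicate 3 (0.061), those of Atp5if1 without replicate 2 or 4 (0.079 and 0.057), and those of Sdhd and Atp5f1a without replicate 2, 3 or 4 (0.09 to 0.18). At 10 Gy Ndufa4l2 lost its call without replicate 2 or 3 (0.08 and 0.075), and Cox7a1 and Atp5f1e without replicate 3 (0.058 and 0.08). The 8 listed fibroblast markers summed to 29600 to 49600 CPM in the untreated libraries, 11900 to 14300 at 10 Gy and 11000 to 14800 at 20 Gy, without overlap with untreated. The 4 macrophage and leukocyte markers summed to 6.62 to 9.37, 15.4 to 24.4 and 15.9 to 22.3 CPM. That sum was nearly all Csf1r and Cd68, at 4.47 to 23.2 and 1.13 to 5.73 CPM over all C56BL6 libraries. Ptprc and Adgre1 reached at most 0.181 and 0.0527 CPM. The part of either list in the members' lower levels was not tested.

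**Figure D2:**
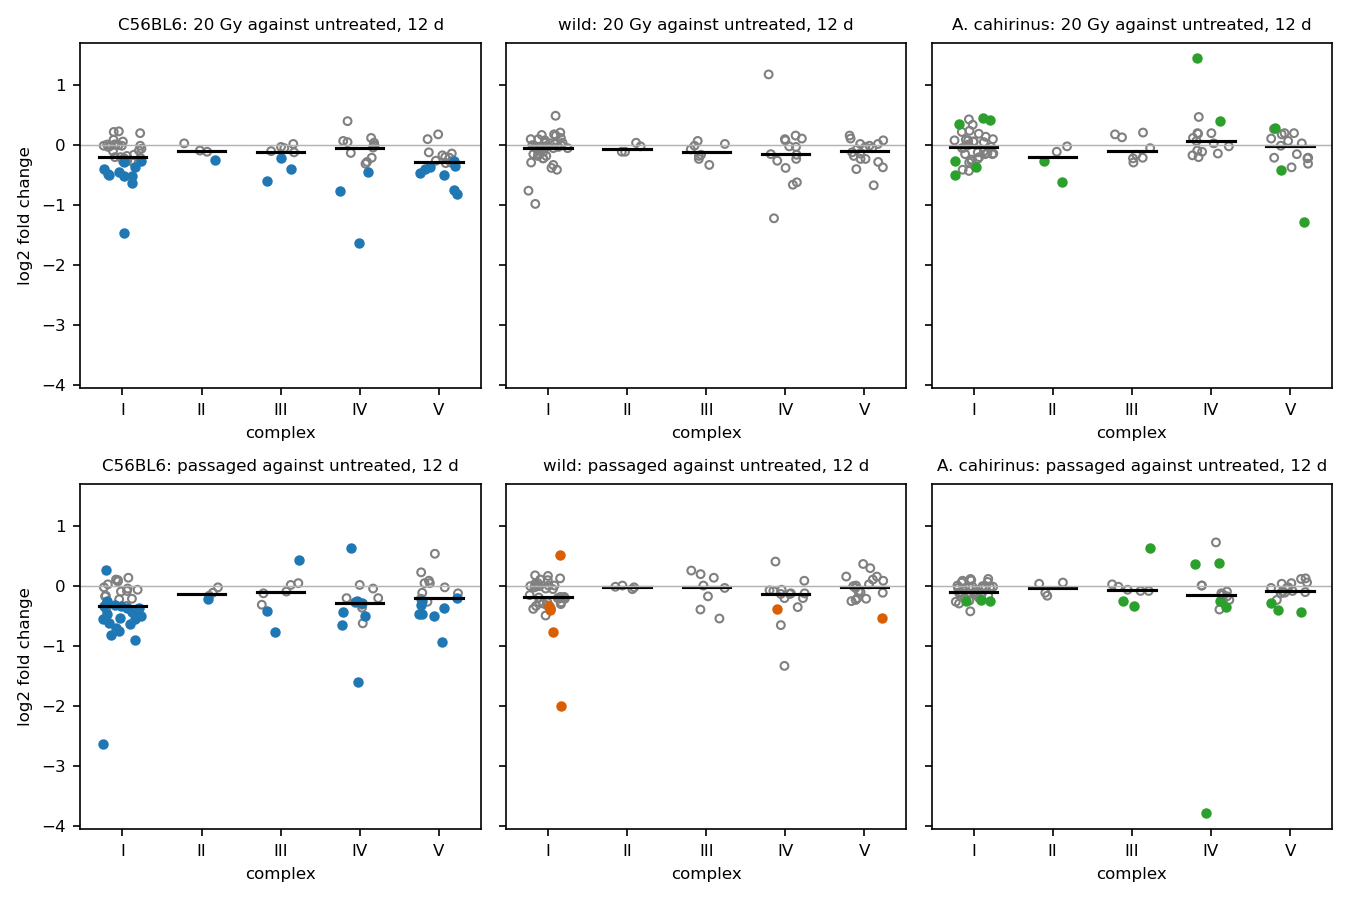
Log2 fold change of every tested member at 12 d, by complex, for 20 Gy against untreated (upper row) and passaged against untreated (lower row) in the 3 populations; filled points had an adjusted p under 0.05 without the block, open points did not, and bars are medians. In C56BL6 at 20 Gy the 26 filled points all lie below 0, in wild mice no point is filled, and in A. cahirinus 6 filled points lie above 0 and 7 below.

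Of complex I, Ndufa4l2 had the largest called fall among the members at or above 5 CPM. It was at 581, 495, 383 and 545 CPM in untreated C56BL6 cells at 12 d, at 142, 196, 183 and 318 after 10 Gy and at 114, 173, 181 and 252 after 20 Gy. All irradiated libraries lay below all untreated ones, with log2 changes of -1.24 (SE 0.25, adjusted p = 0.012) at 10 Gy and -1.46 (SE 0.24, adjusted p = 0.0046) at 20 Gy. Exons of Ndufa4l2 overlap the neighbouring gene Shmt2, and reads shared by the pair are left uncounted by the settings in the file header. Ndufa6, an accessory subunit chosen here after its values were seen, was at 68.6, 54.4, 60.4 and 57.9 CPM untreated and 39.6, 38.5, 41.4 and 34.3 at 20 Gy. These groups did not overlap (log2 -0.63, SE 0.09, adjusted p = 0.0032), and its exons overlap Smdt1. The log2 differences of Ndufs1 and Ndufv1, core subunits of the NADH-oxidising module, were 0.09 and -0.09 with no call.

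Complex II and III members differed among themselves in C56BL6 at 20 Gy. Sdhd, a membrane anchor of succinate dehydrogenase, fell from 96.5 ± 3.05 to 80.5 ± 6.09 CPM (SD, n = 4; log2 -0.24, adjusted p = 0.035 by edgeR). Sdhb, the iron-sulfur subunit on chromosome 4 (GRCm39, 140688502 to 140709380, plus strand), was at 52.5, 67.2, 66.3 and 61.2 CPM untreated and 57.3, 66.3, 66.8 and 58.9 at 20 Gy, with full overlap and a log2 difference of 0.03. Uqcrfs1, the Rieske iron-sulfur protein of complex III, fell from 47.7 ± 1.59 to 35.8 ± 2.52 CPM (log2 -0.39, adjusted p = 0.0067). Uqcrh, the hinge protein of the cytochrome c1 region, also named after its values were seen, was at 123, 118, 133 and 125 CPM untreated and 72.5, 82.4, 97.1 and 73.3 at 20 Gy. No library of these groups overlapped (log2 -0.60, SE 0.10, adjusted p = 0.0049). Uqcrc1, a core subunit, differed by -0.03 with no call.

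In complex IV, Cox7a1 and Cox7a2l carried the larger falls in C56BL6. Cox7a1, the heart and skeletal muscle isoform of subunit 7a on chromosome 7 (GRCm39, 29883569 to 29885503, plus strand), was at 3.71, 3.26, 2.68 and 3.93 CPM untreated, 1.40, 1.11, 1.13 and 1.69 at 10 Gy and 1.12, 0.896, 1.79 and 0.541 at 20 Gy. The groups did not overlap at either dose (log2 -1.33 and -1.63, SE 0.22 and 0.35, adjusted p = 0.0061 and 0.013), at a level of few counts. Summed adipocyte markers also had a lower median, at 28.5 CPM untreated (10.2 to 43.9) and 10.4 at 20 Gy (3.47 to 12.9), with overlap. Over all C56BL6 libraries Fabp4 had a median of 8.74 CPM, and the other listed adipocyte markers medians of 0 to 0.224. The part of these markers in the Cox7a1 result was not tested. Cox7a2l was at 203, 150, 169 and 153 CPM untreated and 96.7, 103, 99.6 and 91.9 at 20 Gy, without overlap (log2 -0.77, SE 0.10, adjusted p = 0.0025), and its exons overlap Eml4. Cox4i1, the common isoform of subunit 4, differed by -0.28 with adjusted p = 0.076 without the block and 0.0093 with it. Cox6a1 and Cox7a2 had log2 differences of 0.05 and -0.13 and were not called.

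In complex V the falls included the epsilon and c subunits. Atp5f1e, the epsilon subunit of the central stalk on chromosome 2 (GRCm39, 174302861 to 174305906, minus strand), was at 71.0, 76.9, 70.5 and 63.7 CPM untreated and 44.9, 37.8, 46.4 and 29.2 at 20 Gy. No irradiated library reached the untreated range (log2 -0.81, SE 0.15, adjusted p = 0.0061), and the fall at 10 Gy was 0.64 (adjusted p = 0.0065). Atp5mc2, on chromosome 15 (GRCm39, 102571295 to 102580787, minus strand), is 1 of 3 genes that encode the c subunit of the rotor ring. It was at 106, 74.6, 75.5 and 72.8 CPM untreated and 53.8, 51.1, 48 and 41.9 at 20 Gy, without overlap (log2 -0.74, SE 0.14, adjusted p = 0.008). Atp5f1a, the alpha subunit, fell by 0.36 (adjusted p = 0.022) and Atp5if1, the inhibitor of the reverse reaction, by 0.40 (adjusted p = 0.011). The beta subunit Atp5f1b (0.10) and the c subunit gene Atp5mc1 (0.18) were not called.

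Subunits encoded by the mitochondrial genome went the other way in C56BL6. Their summed level was 13073 ± 671 CPM untreated, 16201 ± 735 at 10 Gy, 18995 ± 1967 at 20 Gy and 16417 ± 1835 passaged (SD, n = 4). Wild mice had sums of 12185 ± 2167, 16283 ± 4077, 16502 ± 3362 and 11606 ± 1409 CPM in the same order. Without replicate 1 these were 12534 ± 2510, 17723 ± 3540, 17087 ± 3860 and 11336 ± 1590 (n = 3). The sums were not tested. Of 10 tested in C56BL6 at 20 Gy, 7 were higher and 0 lower, against 13% and 13.6% of all genes. Among the 7 were mt-Nd4 (log2 0.72, adjusted p = 0.0051 by edgeR) and mt-Nd2 (0.68, adjusted p = 0.01), both complex I subunits. PolyA selection takes mitochondrial transcripts only in part, and those genes were not used in A. cahirinus.

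Other genes of the pathway were taken from lists by function. In C56BL6 at 20 Gy, where 13% of all genes were higher and 13.6% lower, 2 of 52 tested assembly factors were higher and 7 lower; Cox18 (log2 0.83) and Ndufaf4 (0.77) rose, and Tmem242 fell by 0.65 and Cmc1 by 0.55. Of 23 other electron carriers and entry points 4 were higher and 4 lower, led by Gpd2, the mitochondrial glycerol-phosphate dehydrogenase (1.09), Cycs, cytochrome c (0.75), and Coq8a, of ubiquinone synthesis (-1.27). Among 19 genes of the tricarboxylic acid cycle 2 were higher and 2 lower, and Idh2 fell by 1.34. Of 22 glycolytic genes 1 was higher and 5 lower, with Hk2 (0.87) up and Slc16a3 (-1.02) and Pdk1 (-0.98) down. None of 15 tested regulators of mitochondrial biogenesis was called without the block (4 higher and 1 lower with it). Of 94 tested genes named for cytosolic ribosomal proteins, a list that by its name pattern also takes the S6 kinases, 67 were lower and 0 higher, with a median of -0.65. Of 77 mitochondrial ribosomal protein genes 14 were lower and 1 higher, with a median of -0.11. The members' median of -0.20 lay between these.

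Wild mice gave 0 calls among the members at 12 d for either dose without the block, at an overall rate of 0.0694% of genes at 20 Gy and 0.264% at 10 Gy (10 and 12 members at an unadjusted p under 0.05; 4 and 5 by DESeq2). With the block 7 were lower and 2 higher at 20 Gy (15.4% of all genes) and 8 lower and 2 higher at 10 Gy (12.7%). With the block and without replicate 1, 2 and 1 members were called. Ndufa6 was at 72.2, 70.9, 92.2 and 71.0 CPM untreated and 46.7, 43.3, 44.7 and 44.5 at 20 Gy, without overlap. Its blocked log2 change was -0.75 (SE 0.10, adjusted p = 0.0073) and, without replicate 1, -0.80 (adjusted p = 0.046). Atp5mc2 was at 110, 87.9, 94.8 and 98.1 CPM untreated and 65.3, 54.7, 60.5 and 61.9 at 20 Gy, again without overlap (blocked log2 -0.67, SE 0.08, adjusted p = 0.0055; without replicate 1 -0.65, adjusted p = 0.049). Ndufa4l2 was at 745, 1400, 527 and 713 CPM untreated and 456, 609, 366 and 268 at 20 Gy. Each animal was lower after irradiation and the groups overlapped; the blocked log2 change was -0.95 (adjusted p = 0.017) and, without replicate 1, -1.03 (adjusted p = 0.078). Cox6b2 and Ndufa4 were the 2 members higher at 20 Gy with the block, by 1.10 and 0.47, with adjusted p = 0.12 for both without replicate 1.

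Across the 80 genes with a value in both, the changes at 12 d and 20 Gy were ordered alike in the mouse populations (Spearman rho 0.79, and 0.78 without wild mouse replicate 1) and less so between C56BL6 and A. cahirinus (0.30 over 79 genes). These are descriptions across genes and not replicates, and no p is given.

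In A. cahirinus the members split in both directions at 12 d. At 20 Gy 6 of 82 were higher and 7 lower, against 13.8% and 18.1% of all genes, with a median of -0.03 for the members and 0.00 for all genes. With the block the counts were 12 and 16 (23.5% and 25.7%). At 10 Gy 1 member was lower and none higher, where 2.87% of all genes were called, and 12 were higher and 3 lower with the block (27.5%). Between 20 Gy and 10 Gy 0 members were called without the block (0.457% of all genes; 13 unadjusted; 1 by DESeq2), and 1 was higher and 6 lower with it (17.9%). Leaving out replicate 1, 2, 3 or 4 from both groups gave 3, 23, 4 and 3 calls at 20 Gy. Animal 2, without which the count was 23, had the lowest muscle marker sum of each 12 d group. Macrophage and leukocyte markers summed to 1.26 to 2.25 CPM untreated and 2.95 to 5.62 at 20 Gy, endothelial markers to 0.314 to 0.89 and 2.51 to 3.99, and their part in the calls was not tested. Of the former, Ptprc and Adgre1 reached at most 0.114 and 0.204 CPM over all A. cahirinus libraries. Below, the calls of Sdhd and Ndufb2 were lost without replicate 1, 3 or 4 (adjusted p = 0.064 to 0.26), that of Cox7a2 without replicate 1 or 4 (0.1 and 0.059), that of Cox7a1 without replicate 4 (0.067) and that of Ndufb1 without any 1 of the 4 (0.073 to 0.16). The 10 Gy call of Atp5mc2 was lost without replicate 1, 3 or 4 (0.17 to 0.32).

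Atp5mc2 had the largest fall. In replicates 1 to 4 it was at 250, 235, 301 and 295 CPM untreated, 167, 140, 200 and 180 at 10 Gy and between 89.9 and 129 at 20 Gy. The 3 groups did not overlap, and the log2 changes were -0.65 at 10 Gy (SE 0.12, adjusted p = 0.038) and -1.29 at 20 Gy (SE 0.14, adjusted p = 5.4e-04). Per kilobase, Atp5mc2 made up 71.7 ± 1.90% of the 3 c subunit genes untreated and 53.9 ± 2.78% at 20 Gy, while Atp5mc1 went from 10.8% to 18.2% and Atp5mc3 from 17.5% to 27.9%. In C56BL6 the share of Atp5mc2 was 43.7% untreated and 34.8% at 20 Gy, and in wild mice 47.4% and 37.6%.

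Sdhb was at 59.5, 57.1, 72.1 and 64.2 CPM in untreated A. cahirinus cells, 51.5, 46.3, 64.6 and 56.7 at 10 Gy, and 43.3, 33.8, 41.2 and 46.3 at 20 Gy. All 20 Gy libraries were below all untreated ones (log2 -0.61, SE 0.12, adjusted p = 0.0059). Sdhd fell by 0.27 (adjusted p = 0.037), and Sdha, the flavoprotein, differed by -0.02 with no call. These falls took place while 18 of 19 tested proliferation genes were lower, with a median of -2.42, and 74 of 87 cytosolic ribosomal protein genes were lower, with a median of -0.91.

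Members that rose in A. cahirinus at 20 Gy were accessory subunits and subunit 7a isoforms. Cox7a1 was at 1.13, 2.05, 2.41 and 1.72 CPM untreated, 2.98, 3.13, 2.81 and 2.64 at 10 Gy and 3.80, 3.42, 7.02 and 5.63 at 20 Gy. Irradiated libraries were above untreated ones at both doses (20 Gy: log2 1.45, SE 0.31, adjusted p = 0.0095; 10 Gy: 0.67, adjusted p = 0.17 without and 0.048 with the block). Skeletal muscle markers summed to 8120, 3780, 7710 and 7570 CPM in the same untreated libraries and to 12700, 2290, 12400 and 13200 at 20 Gy; they were higher in 3 of 4 animals and lower in animal 2, in which Cox7a1 was higher too. Their part in the Cox7a1 result was not tested. Cox7a2, the common isoform, was at 103 to 125 CPM untreated and 136 to 167 at 20 Gy, without overlap (log2 0.41, SE 0.10, adjusted p = 0.013). Ndufb2, an accessory subunit of complex I, rose from 13.2 ± 1.42 to 17.6 ± 1.80 CPM (SD, n = 4; log2 0.42, adjusted p = 0.026 by edgeR), and Ndufb1 from 13.8 ± 2.12 to 18.9 ± 3.03 (log2 0.46). Ndufa4l2 was at 302, 462, 289 and 318 CPM untreated and 224, 430, 162 and 201 at 20 Gy, lower in every animal with overlapping groups (blocked log2 -0.50, SE 0.13, adjusted p = 0.015; adjusted p = 0.32 without the block).

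**Figure D3:**
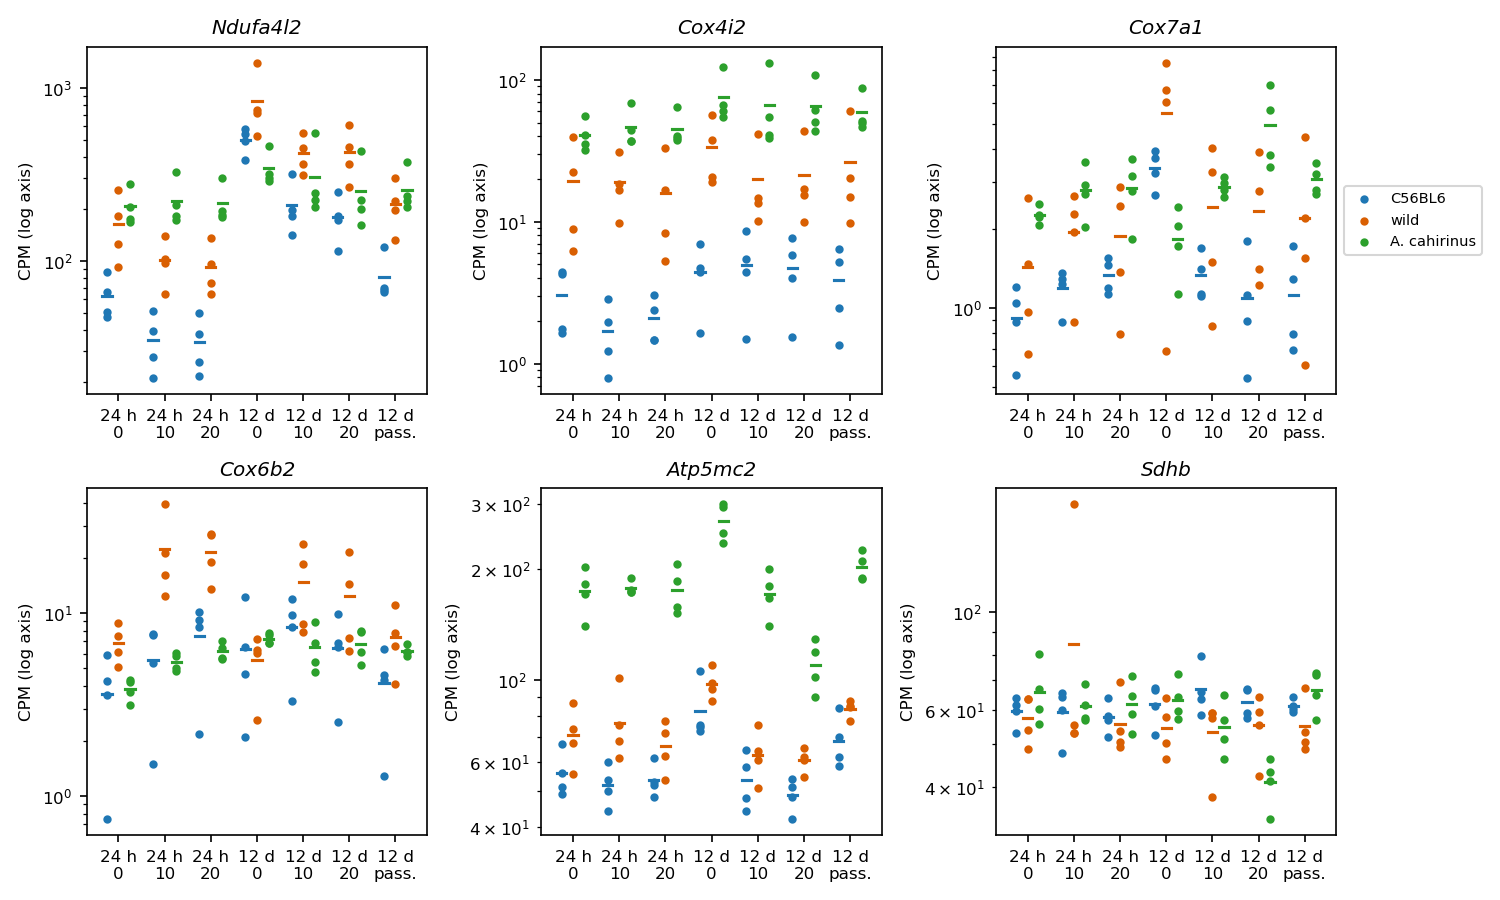
CPM (log axis) of 6 members in every library of the 7 groups and 3 populations; points are libraries and bars group means. At 12 d, Cox7a1 lies lower after irradiation in C56BL6 and higher in A. cahirinus, Atp5mc2 lies lower after irradiation in each population, and Sdhb lies lower at 20 Gy in A. cahirinus; the tests are given with each gene.

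The same lists were counted in A. cahirinus at 20 Gy, where 13.8% of all genes were higher and 18.1% lower. Of 50 assembly factors 2 were higher and 9 lower, with Pet100 (log2 0.71) up and Surf1 (-0.82) and Ndufaf3 (-0.63) down. Of 19 tricarboxylic acid cycle genes 1 was higher and 4 lower, and Idh2 fell by 0.92. Of 22 glycolytic genes 11 were lower and none higher, among them Eno1 (-0.76). Of 17 regulators of biogenesis 5 were lower and none higher, with Myc at -1.10. Gpd2, which rose in C56BL6, fell by 0.77 here; the difference between the populations was not tested for this gene.

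The difference between the 20 Gy changes of A. cahirinus and C56BL6 at 12 d was tested directly on genes with a shared symbol. Of 81 members 11 had a more positive change in A. cahirinus and 1 a more negative one, against 8.24% and 11% of all genes (6 in all without A. cahirinus replicate 1 and 7 without C56BL6 replicate 2), with a median difference of 0.18 for the members and -0.04 for all genes. With the block the counts were 22 and 3 (17.2% and 21.1%). The differences were 3.07 for Cox7a1 (SE 0.49, adjusted p = 0.0011), 0.84 for Atp5f1e (SE 0.16, adjusted p = 0.0027), 0.66 for Atp5mf, a small membrane subunit of complex V (SE 0.15, adjusted p = 0.0088), and 0.65 for Cox7a2l (SE 0.15, adjusted p = 0.0081). Atp5f1e was at 62.9, 62.9, 67.2 and 63.2 CPM in untreated A. cahirinus cells and at 66.3, 68.6, 64.5 and 62.2 at 20 Gy, with overlap. Sdhb had the 1 more negative change (-0.65, SE 0.16, adjusted p = 0.011). Against wild mice 1 member differed, Ndufa6 (0.51, SE 0.13, adjusted p = 0.047), where 3.39% of all genes did. That call was lost without any 1 replicate of either population (adjusted p = 0.06 to 0.17), wild mouse replicate 1 among them (0.53, adjusted p = 0.11). With the block 8 were more positive and 3 more negative (23.4%), and 10 in all when wild mouse replicate 1 was also left out. Among these blocked differences were Cox7a1 (2.49), Cox6b2 (-1.18), Sdhb (-0.62) and Atp5mc2 (-0.60), and without wild mouse replicate 1 they were 2.42, -1.16, -0.61 and -0.65, each still called (adjusted p = 0.017 to 0.048).

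**Figure D4:**
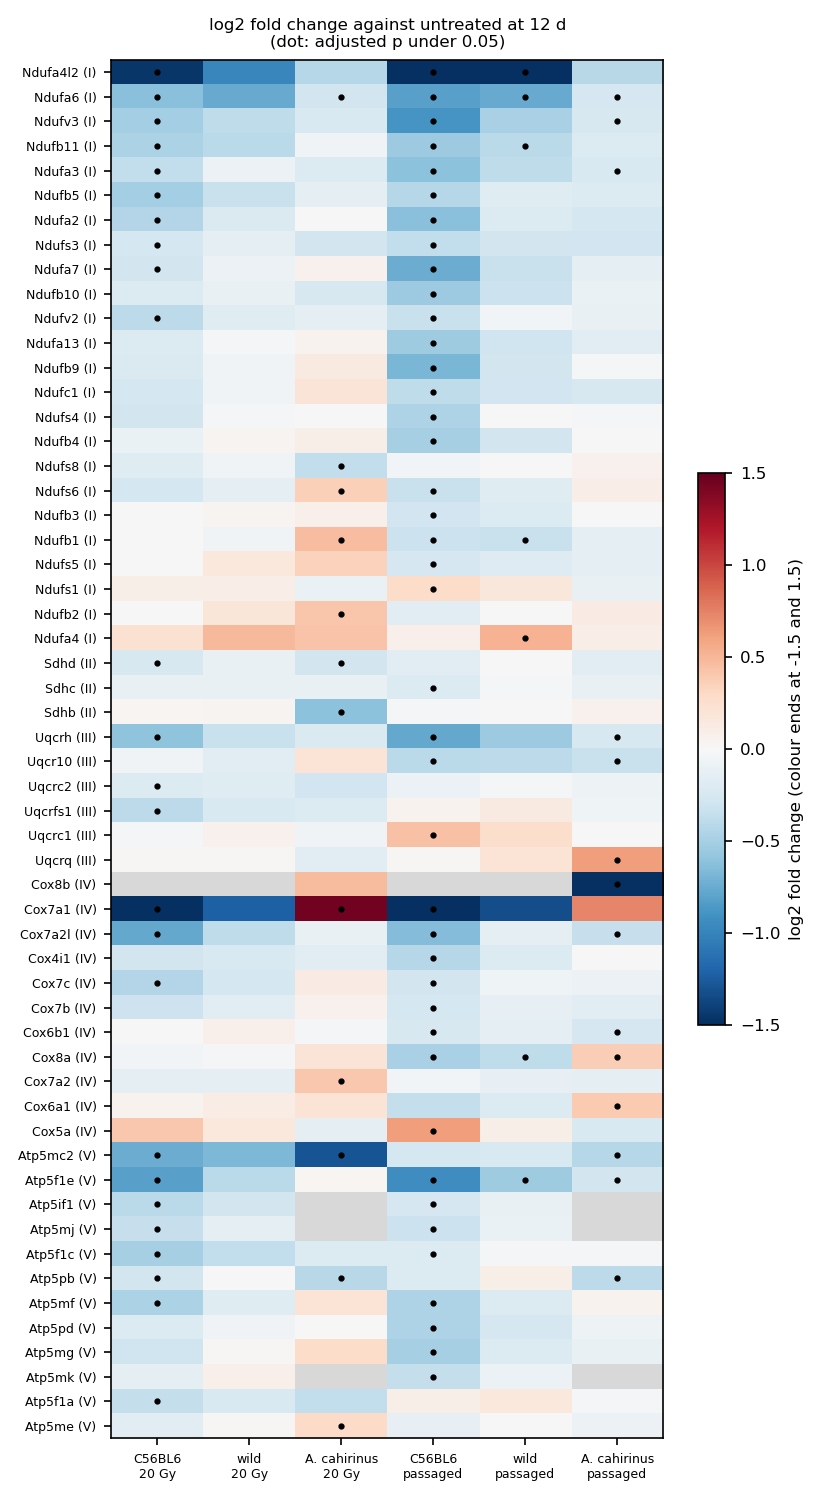
Log2 fold change against untreated at 12 d for 56 members called in at least 1 of the 6 comparisons shown (20 Gy and passaged in each population), in rows by complex; a dot marks an adjusted p under 0.05 without the block, grey means not tested, and colour ends at -1.5 and 1.5. The C56BL6 columns are mostly blue with many dots, the wild mouse columns share most of their colours with few dots, and the A. cahirinus columns hold red and blue cells.

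The passaged group at 12 d was compared with untreated cells of the same time. In C56BL6 39 of 83 members were lower and 3 higher, against 25.5% and 24.1% of all genes, with a median of -0.25 for the members and -0.02 for all genes. With the block the counts were 48 and 4 (30.8% and 29.3%). Complex I held 21 of the 39, of 38 tested. Fibroblast markers summed to 17900 to 25900 CPM in the passaged libraries, below the untreated range, and their part was not tested. Ndufa4l2 was at 69.6, 65.9, 68.4 and 120 CPM in passaged cells, far below the untreated range of 383 to 581 (log2 -2.63, SE 0.24, adjusted p = 2.3e-04). Ndufv3 went from 89.2, 85.7, 79.0 and 81.2 CPM to 41.2, 45.4, 46.5 and 48.1, without overlap (log2 -0.89, SE 0.07, adjusted p = 1.8e-04). Atp5f1e was at 36.1, 40.3, 34.4 and 37.3 CPM (log2 -0.93, SE 0.08, adjusted p = 2.2e-04). The 3 members that rose were Cox5a, from 21.7, 18.3, 17.1 and 15.5 CPM to 37.8, 25.9, 23.9 and 24.6, Uqcrc1 and Ndufs1. The Cox5a groups did not overlap (log2 0.63, SE 0.17, adjusted p = 0.017), and the rises of Uqcrc1 and Ndufs1 were 0.44 and 0.27. All 20 tested proliferation genes were higher in passaged cells, with a median of 2.47, and 22 of 52 assembly factors were lower and 4 higher, with Surf1 and Uqcc3 both at -1.05. Leaving out replicate 1, 2, 3 or 4 gave 46, 26, 24 and 30 member calls. The call of Cox5a was lost without replicate 2, 3 or 4 (adjusted p = 0.057 to 0.071), that of Ndufs1 without replicate 2 (0.08) and that of Uqcrc1 without replicate 4 (0.067).

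In wild mice 6 members were lower and 1 higher after passaging (5.20% and 5.51% of all genes), and 17 and 2 with the block (16.8% and 15.1%). With the block and without replicate 1 they were 4 and 1. Ndufa4l2 was at 196, 222, 300 and 133 CPM in passaged cells, below the untreated range of 527 to 1400 (log2 -2.0, SE 0.36, adjusted p = 0.02; with the block and without replicate 1 -1.98, adjusted p = 0.042). Ndufa4 rose, from 59.1, 50.8, 53.5 and 49.3 CPM to 78.2, 86.0, 75.2 and 66.4, without overlap (log2 0.52, SE 0.11, adjusted p = 0.028; with the block and without replicate 1 0.56, adjusted p = 0.045). Ndufa6, Atp5f1e, Ndufb11 and Cox8a fell by 0.76, 0.53, 0.40 and 0.38. With the block and without replicate 1 these values were -0.70, -0.50, -0.39 and -0.36, and the last 2 were no longer called (adjusted p = 0.07 and 0.087). In the fit without the block, leaving out replicate 1, 2 or 4 gave 0 calls and leaving out replicate 3 gave 7.

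In A. cahirinus 11 members were lower and 3 higher after passaging (13.6% and 12.1% of all genes), and 20 and 4 with the block (26.3% and 23.2%). Cox8b, the muscle isoform of subunit 8, was at 3.35, 0.563, 4.71 and 2.07 CPM untreated and at 0.195, 0, 0.281 and 0.285 passaged. All passaged libraries were lower. Their values are near the level of 3 counts, 0.104 to 0.117 CPM, and the gene passed the filter through the untreated libraries, so its call is counted above and no fold is given. The muscle marker sums were 2210 to 5400 CPM passaged and 3780 to 8120 untreated; their part in the result was not tested. Uqcrq, a ubiquinone-binding subunit of complex III, rose from 85.4, 74.9, 92.4 and 74.0 CPM to 118, 112, 156 and 124, without overlap (log2 0.63, SE 0.11, adjusted p = 0.0064). Cox6a1 and Cox8a rose by 0.39 and 0.37, and Atp5mc2 fell by 0.43 (adjusted p = 0.014). Ndufa4l2 was at 204, 373, 221 and 238 CPM (blocked log2 -0.44, adjusted p = 4.6e-04; adjusted p = 0.22 without the block). Leaving out replicate 1, 2, 3 or 4 gave 1, 17, 1 and 1 member calls, and Cox6a1, Cox8a and Atp5mc2 lost theirs without replicate 1, 3 or 4 (adjusted p = 0.059 to 0.12). Of 20 proliferation genes 14 were higher, with a median of 0.80.

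The passage changes of A. cahirinus and C56BL6 differed at 20 members in the positive direction and 1 in the negative, of 81, against 13.5% and 14.3% of all genes. With the block the counts were 27 and 4 (21.6% and 23.6%). The difference was 2.20 for Ndufa4l2 (SE 0.35, adjusted p = 6.5e-04), 2.32 for Cox7a1 (SE 0.41, adjusted p = 0.0014), 0.86 for Cox8a (SE 0.14, adjusted p = 9.7e-04) and 0.75 for Cox6a1 (SE 0.16, adjusted p = 0.0046). Cox8a was at 15.8, 17.1, 15 and 14.3 CPM in untreated and 20.2, 19.6, 21.4 and 20.5 in passaged A. cahirinus cells, against 117 ± 9.68 in untreated and 83.8 ± 13.7 in passaged C56BL6 cells (SD, n = 4). Muscle markers summed to 7.49 to 30.2 CPM in untreated and 88.4 to 189 CPM in passaged C56BL6 libraries, and their part in the Cox7a1 difference was not tested. Acta1 alone, a muscle actin, was at 4.82 to 7.22 and 84.8 to 151 CPM there. Myod1, Myog, Ckm, Myh3 and Myh8 were under 1 CPM in every C56BL6 library. The negative difference was Cox5a (-0.86, SE 0.20, adjusted p = 0.0054).

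Irradiated and passaged cells were also compared with each other, both being against the same untreated libraries above. In C56BL6 13 members were higher and 8 lower at 20 Gy than after passaging, where 41.6% of all genes were called, and 17 and 11 with the block (56.1%). Of the 13, 10 were in complex I, led by Ndufa4l2 (log2 1.15, SE 0.28, adjusted p = 0.011), Ndufb9 (0.45) and Ndufa7 (0.44). Of the 8, 5 were in complex V, among them Atp5mc2 (-0.50, SE 0.13, adjusted p = 0.014). Leaving out replicate 1, 2, 3 or 4 gave 21, 8, 7 and 15 calls, with Ndufa4l2 lost without replicate 2 or 3 (adjusted p = 0.069 and 0.073), Ndufb9 and Ndufa7 without replicate 3 (0.076 and 0.058) and Atp5mc2 without replicate 4 (0.079). In wild mice 1 was higher, Cox8a (0.34, adjusted p = 0.039), and 1 lower, Atp5mc2 (-0.45, adjusted p = 0.02), at 10.5% of all genes; both calls were lost without replicate 1, 2 or 4 and that of Cox8a also without replicate 3 (adjusted p = 0.055 to 0.26). The counts were 6 and 6 with the block (38%). With the block and without replicate 1, Cox8a was at 0.29 (adjusted p = 0.063) and Atp5mc2 at -0.55 (adjusted p = 0.0087). In A. cahirinus 9 were higher and 6 lower (42.5% of all genes), and 12 and 11 with the block (56%). Leaving out replicate 1, 2, 3 or 4 gave 6, 27, 9 and 8 calls, and Ndufb1 lost its call without replicate 1 (adjusted p = 0.081). Atp5mc2 (-0.88), Uqcrq (-0.80) and Sdhb (-0.68) were lower at 20 Gy, and Ndufb1 (0.59), Cox7a2 (0.54) and Uqcr10 (0.53) higher.

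Isoform pairs differed in their proportions between groups at 12 d. Ndufa4l2 made up 90.8 ± 1.96% of the per-kilobase level of Ndufa4 and Ndufa4l2 in untreated C56BL6 cells, 74.4 ± 9.26% at 20 Gy and 59.7 ± 6.67% passaged (SD, n = 4). In wild mice the shares were 94.7%, 87.1% and 76.9% (94.8%, 87.6% and 77.2% without replicate 1), and in A. cahirinus 70.1%, 55.1% and 61.8%. Cox7a1 made up 8.84% of the subunit 7a pair in untreated C56BL6 cells, 3.20% at 20 Gy and 3.23% passaged, but 2.60%, 5.29% and 4.68% in A. cahirinus. Wild mice had shares of 12.0%, 5.92% and 5.67% (10.2%, 5.07% and 3.91% without replicate 1). The share of Cox4i2 in the subunit 4 pair ran from 3.02% to 3.99% over the C56BL6 groups at 12 d, from 15.8% to 20.0% in wild mice (17.1% to 22.4% without replicate 1) and from 26.1% to 31.2% in A. cahirinus. These shares were not tested.

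Of the 83 tested mouse members, 51 share exon sequence with another annotated gene, from which the deposited counts leave reads out. At 20 Gy and 12 d in C56BL6, 20 of these 51 were lower (median log2 -0.22) and 6 of the 32 that share none (-0.10). Of all genes 13.6% were lower there. After passaging 26 of 51 and 13 of 32 were lower, against 25.5% of all genes. The part of shared exons in these counts was not tested. Cox7a1, Cox4i2, Cox6b2, Atp5f1e and Sdhb share no exon.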

How the data were processed

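PolyA RNA was sequenced from stranded mRNA libraries of 84 fibroblast samples in 21 groups of 4. The authors deposited raw counts per gene, made with featureCounts 2.0.3 per the file headers: the mouse libraries on GRCm39 with Ensembl release 108, the A. cahirinus libraries on the AcoCah2 assembly by gene name. The header commands give no strand option, so a gene and its antisense partner cannot be told apart, and reads in overlapping genes were left out. Trimming with Trim Galore and alignment with HISAT2 are named in the submitters' processing notes.

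Counts were filtered with filterByExpr, scaled by TMM and tested with edgeR 4.0.16 (quasi-likelihood, R 4.3.3) over all genes with Benjamini-Hochberg adjustment at 0.05, each comparison within 1 table and time and on its own groups. Differences between populations were interaction terms over 17759 shared symbols. The code was tested on simulated data. Standard errors are the log2 fold change divided by the square root of F. The animal number was added as a block in a second fit. The pairing comes from the library names in the labels, where a number is one animal code: in every comparison tested, deviations of same-numbered libraries correlated at 0.40 or more for each pair, with means of 0.54 to 0.91, against -0.30 to -0.12 for other numbers. No 2 libraries of a group agreed within sampling noise over 126 pairs (variance 8.76 to 630.96 times that noise). Separate cultures of 1 animal could exceed that noise too, so this does not show that replicates are different animals. Wild mouse replicates 1 and 4 at 12 d were at 23.83 to 41.35 times, and the other wild mouse pairs at 12 d at 102.76 to 630.96. C56BL6 replicates 3 and 4 were at 8.76 to 21.22 times over the 7 groups, and the other C56BL6 pairs at 23.11 to 303.99. At both times these C56BL6 replicates differed at 0 of 9 genes that are on in some animals and off in others. Whether either pair of replicates is 2 animals cannot be told. The n = 4 of C56BL6, and of wild mice at 12 d, may hold fewer animals. Alternatives were DESeq2 1.42.0, its size factors, no low-count filter, the block, and leaving out each replicate.

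Genes to name were drawn from a fixed panel and from the 3 largest rises and 3 largest falls per comparison among called members at a mean of 5 CPM or more. Up to 2 genes each way per functional list were added at 20 Gy and after passaging. Not all of these are described for every comparison. Cox4i2, for example, was called lower in wild mice at 12 d at both doses with the block only, and its values are not given. Others are said to be chosen after their values were seen. Members and lists were chosen with earlier results of these data known. Levels per kb use the lengths in the deposited tables. The values of 1 member are not reported here, though it is in the counts.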

Additional observations from a re-analysis of the deposited data

Results flagged for a closer look

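Chance alone sets 1 of 4 libraries this far from the rest in about 1 in 20 groups. The summed level of all members was apart from its group in wild mouse replicate 1 at 10 Gy and 24 h (21134 CPM), as were its sums for complex I (6624), complex III (2119), complex IV (4494) and complex V (7189). C56BL6 replicate 2 at 10 Gy and 24 h had a member sum of 6856 CPM, wild mouse replicate 2 at 10 Gy and 12 d a complex III sum of 385, and C56BL6 replicate 4 at 20 Gy and 12 d a complex IV sum of 947.

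Ndufa4l2 stood apart in C56BL6 replicate 4 of the passaged group (120 CPM). In A. cahirinus, animal 2 stood above the others for Ndufa4l2 at 20 Gy and 24 h (303), untreated at 12 d (462) and at 10 Gy and 12 d (552). The same animal stood above the others for Cox4i2 at 20 Gy and 24 h (64.3), untreated at 12 d (123), at 10 Gy and 12 d (132) and passaged (88.1). Wild mouse replicate 3 at 10 Gy and 12 d had 41.7 CPM of Cox4i2.

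Changes that differed between A. cahirinus and C56BL6 by an interaction term in edgeR were, at 24 h and with the replicate block, Ndufa4l2 (0.98), Cox4i2 (0.66) and Ndufa13 (0.22). At 12 d and 20 Gy 12 members differed, among them Atp5f1e (0.84), Atp5mf (0.66), Cox7a2l (0.65) and Sdhb (-0.65). After passaging 21 differed, among them Ndufa4l2 (2.20), Cox8a (0.86), Cox6a1 (0.75) and Cox5a (-0.86). Against wild mice 1 differed at 12 d, Ndufa6 (0.51).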

How the results depend on the processing

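No direction reversed for any member count or named gene under the settings run. The replicate block gave these numbers of called members: C56BL6 9 and 5 at 24 h (20 and 10 Gy), 41 and 23 at 12 d; wild mice 2 at 24 h and 20 Gy, 9 and 10 at 12 d, 19 after passaging, and 12 for 20 Gy against passaged; A. cahirinus 4 and 6 at 24 h, 28 and 15 at 12 d, 24 after passaging, 23 for 20 Gy against passaged and 7 for 20 against 10 Gy; interactions with C56BL6 3 at 24 h and 25 at 12 d, and with wild mice 11. The block moved no other count by over 1.5 times. DESeq2 gave 1, 1, 4, 5 and 5 for wild mice (24 h 20 Gy, 24 h 10 Gy, 12 d 20 Gy, 12 d 10 Gy, 20 Gy against passaged), 2, 1, 4 and 1 for A. cahirinus (24 h 20 Gy, 24 h 10 Gy, 12 d 10 Gy, 20 against 10 Gy), 20 and 6 for the interactions at 12 d with C56BL6 and wild mice, and 9 and 2 for untreated wild mice against C56BL6 at 24 h and 12 d. Without the low-count filter the counts were 11 for C56BL6 20 Gy against passaged, 2 and 0 for wild mice passaged and 20 Gy against passaged, 0 for A. cahirinus at 24 h and 20 Gy, and 0 for the wild mouse interaction; more genes were tested there.

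With the block and without wild mouse replicate 1, settings chosen after seeing the data, the counts were 2 (24 h 10 Gy), 2 and 1 (12 d, 20 and 10 Gy), 5 (20 Gy against passaged) and 10 (interaction). Leaving out 1 animal at a time (its library in each group compared) gave, for C56BL6 at 12 d, 11 to 29 (20 Gy), 0 to 18 (10 Gy), 24 to 46 (passaged) and 7 to 21 (20 Gy against passaged); for wild mice 0 to 7 (passaged) and 0 to 1 (20 Gy against passaged); for A. cahirinus 0 to 1 and 0 to 1 (24 h), 3 to 23 (20 Gy), 0 to 2 (10 Gy), 1 to 17 (passaged), 6 to 27 (20 Gy against passaged) and 0 to 6 (20 against 10 Gy); for the interactions 6 to 13 (C56BL6, 12 d), 15 to 23 (passaged) and 0 to 1 (wild mice); and for untreated wild mice against C56BL6 0 to 3 and 0 to 4. The cause of these shifts was not tested. Without replicate 1 the median log2 difference of members at 24 h and 10 Gy was 0.14 in C56BL6 and 0.00 in wild mice. Depth limits Cox7a1, Cox8b and Cox6a2, which rest on few counts.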
